A study of Mus musculus with 20 samples.

Results

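The BCL2 family sets the threshold for mitochondrial cell death in T cells, and 10 of its genes were taken by symbol from a table of normalized counts for 17101 genes. All 10 were found: Bcl2, Bcl2l1, Mcl1, Bcl2a1b, Bax, Bak1, Bcl2l11, Bbc3, Pmaip1 and Bid. The table holds 20 RNA-Seq libraries of splenic donor T cells from mouse recipients of an allogeneic bone marrow transplant (allo-BMT), sorted on day +10. The 5 groups, with 4 libraries each, were Dnmt3a-KO CD4+, Dnmt3a-KO CD8+ and Dnmt3a-KO CD4+CD8+ double-positive (DP) cells, and WT CD4+ and WT CD8+ cells. KO donors carried Dnmt3a alleles flanked by loxP sites and CD4-Cre, whose promoter is active in the thymus before the CD4+ and CD8+ lineages part, so both lineages lose the gene. WT donors were littermates, and whether they carried Cre or loxP sites is not given in the sources used here. Donors were of the B6 strain, aged 6 to 12 weeks by the labels, and the F1 recipients, aged 8 to 12 weeks, had been irradiated. The KO animals are numbered 1 to 4 and the WT animals 2, 3, 5 and 6. No WT library of DP cells was used here, so no DP comparison separates genotype from subset.

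A cell undergoes mitochondrial apoptosis when BAX or BAK forms pores in the outer mitochondrial membrane. BCL2, BCL-XL (encoded by Bcl2l1), MCL1 and A1 (encoded by the Bcl2a1 genes) hold BAX and BAK in check, and the BH3-only proteins BIM (Bcl2l11), PUMA (Bbc3), NOXA (Pmaip1) and BID free or activate them. In T cells, IL-7 maintains Bcl2, antigen receptor and NF-kB signals raise Bcl2l1 and Bcl2a1, and BIM removes activated cells when an immune response ends. RNA levels do not measure these proteins, several of which are set by cleavage or by protein turnover.

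In KO cells the survival gene Bcl2 was higher than in WT cells in both subsets, 2.00-fold in CD4+ and 2.68-fold in CD8+ cells. The death gene Bbc3 was higher by a similar factor, 2.10-fold in CD4+ and 2.14-fold in CD8+ cells. It passed the test narrowly in CD4+ cells (adjusted p = 0.0496) and did not pass in CD8+ cells (adjusted p = 0.0543). Mcl1 and Bak1 rose slightly in KO CD8+ cells, 1.15-fold and 1.19-fold. Bcl2a1b was the member with the lowest KO-to-WT ratio in both subsets, 0.587 and 0.627, without passing the test in either. For Bcl2, Bbc3 and Bcl2a1b the 4 KO animals lay further apart than the WT animals. For Bcl2a1b and Mcl1 the KO animals kept the same order across CD4+, CD8+ and DP cells.

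Between 37547651 and 46966318 reads fell on genes in each library. The number of genes with reads was 13203 to 14677, apart from 11783 in DP cells of KO animal 3. Dnmt3a was lower in KO than in WT cells, by 1.64 on the log2 scale in CD4+ and 1.20 in CD8+ cells (adjusted p = 1.26e-05 and 0.000654). The T-cell genes Cd3d, Cd3e, Cd3g, Lck, Cd2 and Cd5 were present in every library, with a summed normalized count of 131377 to 237600. Cd4 and Cd8a followed the sort, with exceptions. CD4+ cells of KO animal 1 had 3771 normalized counts of Cd8a, against 78.3 to 586 in the other CD4+ libraries. Cd4 was at 302 to 458 in KO CD8+ and 9.88 to 79.6 in WT CD8+ libraries. Cd8b1 was at 550 to 4515 in KO CD4+ and 285 to 549 in WT CD4+ libraries. Several sums of marker genes moved with genotype or with single animals. The 6 neutrophil markers S100a8, S100a9, Ngp, Camp, Ltf and Retnlg summed to 0 to 470 in KO animals 1, 2 and 4, to 2631 to 7179 in KO animal 3, and to 1716 to 4217 in WT libraries. The 5 measured B-cell markers summed to 646 to 2282 in KO and 55.7 to 259.96 in WT libraries, most of it Cd79b, while Ms4a1 and Pax5 were at 0 to 7.35. The nuclear-retained transcripts Malat1, Neat1, Kcnq1ot1 and Meg3 summed to 4314 to 28272 in KO and 29082 to 62119 in WT libraries. The 12 stress and immediate early genes summed to 18576 to 34546 in KO and 34619 to 77850 in WT libraries. In these bulk samples fewer cells of a type and less RNA per cell cannot be told apart. The part of these differences in the results on the BCL2 family was not tested.

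DNMT3A adds methyl groups to cytosines in CpG dinucleotides, and the members differ in how many of these lie just before their transcription starts. The 250 bases upstream of 14 annotated starts of 9 members were read from RefSeq for the assembly GRCm38.p6 (mm10), and Pmaip1 was not among them. The 3 sequences below are shown because Bcl2 and Bbc3 were the members that rose in KO CD4+ cells and Bcl2a1b had the lowest KO-to-WT ratio. Each runs 5′ to 3′ on the strand of its gene up to the base before the start, with CpG in capitals. The windows are chr1:106714291-106714540 on the minus strand for Bcl2, chr7:16310181-16310430 on the plus strand for the most downstream of 3 starts of Bbc3, and chr9:89199023-89199272 on the plus strand for Bcl2a1b.
Bcl2: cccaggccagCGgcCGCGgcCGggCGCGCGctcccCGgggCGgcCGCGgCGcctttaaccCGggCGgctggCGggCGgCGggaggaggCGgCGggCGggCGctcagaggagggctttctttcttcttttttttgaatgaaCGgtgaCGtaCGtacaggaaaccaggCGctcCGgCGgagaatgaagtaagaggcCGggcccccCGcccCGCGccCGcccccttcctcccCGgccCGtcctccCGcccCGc
Bbc3: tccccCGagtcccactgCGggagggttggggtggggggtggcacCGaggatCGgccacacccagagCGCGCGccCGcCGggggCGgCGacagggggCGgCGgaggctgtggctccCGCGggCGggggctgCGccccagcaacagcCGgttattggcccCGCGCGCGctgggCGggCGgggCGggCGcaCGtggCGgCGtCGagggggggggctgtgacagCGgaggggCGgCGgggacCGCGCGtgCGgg
Bcl2a1b: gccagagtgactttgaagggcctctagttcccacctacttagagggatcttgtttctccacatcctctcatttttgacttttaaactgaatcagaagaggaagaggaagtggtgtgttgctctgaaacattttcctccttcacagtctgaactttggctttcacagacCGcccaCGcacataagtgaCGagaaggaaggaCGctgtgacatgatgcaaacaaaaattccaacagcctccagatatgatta
The Bcl2 window holds 36 CpG and the Bbc3 window 37, more than 97.4% and 97.8% of all 32851 annotated upstream windows of this length. The other 2 windows of Bbc3 hold 27 and 23, more than 91.4% and 86.7%, and the one with 23 overlaps the window shown. For these 2 windows and that of Mcl1, bases shortly after the start were not found in GENCODE transcripts of the gene. The Bcl2a1b window holds 4, more than 37.8%. The median over all windows is 6. Among the other members, Mcl1 has 26 CpG, Bid 18, Bax 14 and Bak1 8, while 2 windows of Bcl2l11 hold 24 and 30 and 3 windows of Bcl2l1 hold 0, 11 and 12. The motifs searched, on both strands, were 4. The FOXO motif GTAAACA lies in 1 window of Bcl2l11 and 1 of Bbc3, and in 3.17% of all windows. The STAT motif TTCNNNGAA lies in 0 of the 14 windows and in 7.02% of all windows. The kappa-B consensus lies in 1 window of Bcl2l1 and in 1 of Bbc3, the latter with 3 matches, and in 7.25% of all windows. The FOXO and kappa-B matches of Bbc3 lie in its windows with 23 and 27 CpG, in that order. The decamer bound by p53 lies in the Bax window and in 7.13% of all windows. These matches describe letters within 250 bases, and no methylation value enters the comparisons here.

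**Figure D1:**
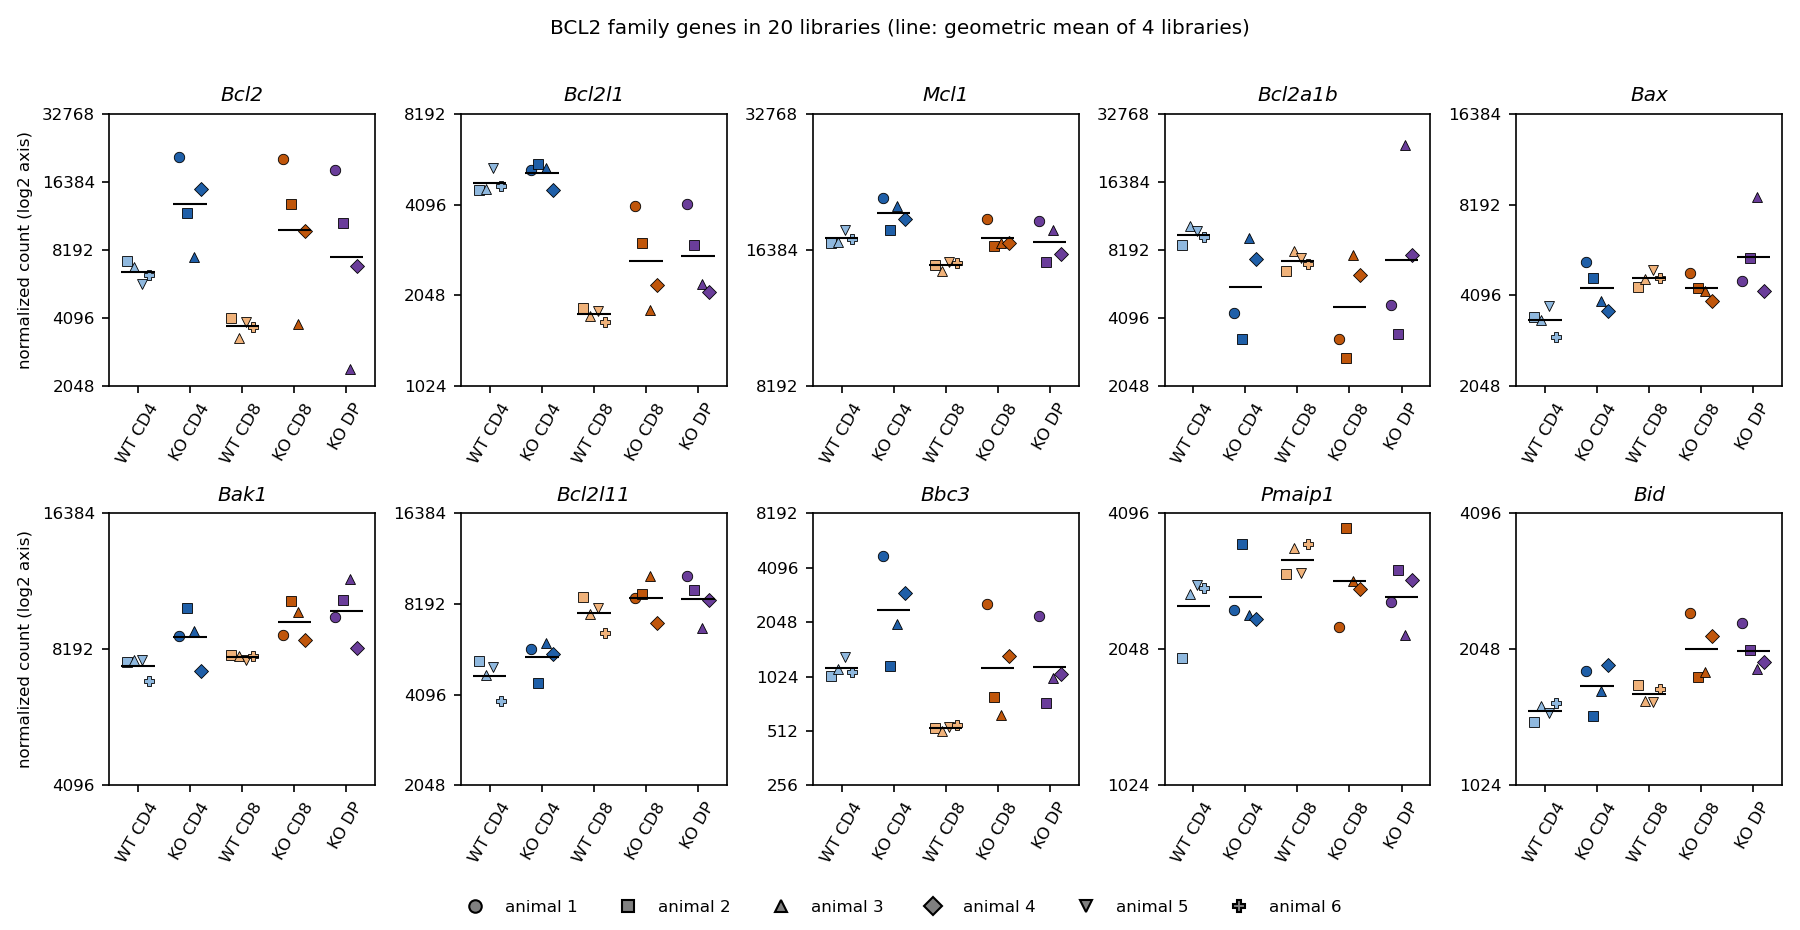
Normalized counts of the 10 genes in each of the 20 libraries on log2 axes, by group, with symbols for the animal numbers within each genotype and a line at the geometric mean of 4 libraries. For Bcl2, KO animal 1 is highest and KO animal 3 lowest in all 3 KO groups, and the WT libraries lie close together.

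Bcl2 (chr1:106538176-106714290) encodes the founding survival protein of the family, which binds BIM and PUMA. In CD4+ cells, KO animals 1 to 4 had 21206, 11954, 7635 and 15205 normalized counts, and WT animals 2, 3, 5 and 6 had 7290, 6896, 5784 and 6325. Every KO library lay above every WT library. The difference was 1.00 on the log2 scale (SE 0.25, 95% CI 0.45 to 1.55, adjusted p = 0.0233, 2-sided exact permutation p = 0.0286, the smallest that 4 libraries against 4 allow). In CD8+ cells, KO animals 1 to 4 had 20656, 13078, 3854 and 9947 normalized counts and the WT animals 4115, 3343, 3940 and 3725. KO animal 3 lay within the WT range, while the other 3 were above it. The difference was 1.42 (SE 0.41, 95% CI 0.50 to 2.34, adjusted p = 0.0329, exact permutation p = 0.0857). In DP cells the values were 18421, 10755, 2429 and 6963, so KO animal 3 fell below every other library of the series. KO animal 3 was also the KO animal whose neutrophil marker sums, 4097, 2631 and 7179 in CD4+, CD8+ and DP cells, were like those of WT libraries or above them. When 1 library was left out, Bcl2 passed in 5 of 8 fits in CD4+ cells (adjusted p = 0.00255 to 0.0717) and in 2 of 8 in CD8+ cells (0.000821 to 0.0852). It did not pass without WT CD4+ animal 3, 5 or 6, without KO CD8+ animal 2 or 4, or when any 1 of the WT CD8+ animals was left out. The lowest p in each range came without KO animal 3, which has the lowest Bcl2 value of the KO group, so leaving it out had to widen the difference. Under the 10 alternative settings Bcl2 passed in 7 in each subset.

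The SD of Bcl2 on the log2 scale was 0.62, 1.02 and 1.24 in KO CD4+, CD8+ and DP cells, against 0.15 and 0.13 in WT CD4+ and CD8+ cells. The highest KO library exceeded the lowest 2.78-fold in CD4+, 5.36-fold in CD8+ and 7.58-fold in DP cells, and the corresponding ratios in WT cells were 1.26 and 1.23.

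Bcl2l1 (chr2:152758732-152833803) encodes BCL-XL and, by another splice site, a short form that promotes death. Counts per gene do not separate these forms. In CD4+ cells its values overlapped between the genotypes, with 4590 to 5584 normalized counts in KO and 4580 to 5409 in WT libraries (log2 difference 0.11, 95% CI -0.08 to 0.31, adjusted p = 0.36). In CD8+ cells KO animals 1 to 4 had 4046, 3060, 1829 and 2221 and the WT animals 1862, 1747, 1813 and 1675. KO animal 3 was again inside the WT range, and the other 3 KO animals were above it. The difference of 0.59 (SE 0.21) did not pass the test (adjusted p = 0.0678).

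Mcl1 (chr3:95656944-95663179) encodes a short-lived survival protein that T cells need throughout life. Its RNA was the steadiest of the survival genes between libraries. In CD8+ cells KO animals 1 to 4 had 19141, 16687, 16997 and 16951 normalized counts and the WT animals 15146, 14696, 15442 and 15347. The groups did not overlap, and the difference was 0.20 (SE 0.06, adjusted p = 0.0463, exact permutation p = 0.0286). This difference passed in 2 of the 8 fits with 1 library left out and in 4 of the 10 alternative settings. In CD4+ cells the KO range of 18115 to 21307 overlapped the WT range of 16962 to 18170 (log2 difference 0.18, 95% CI 0.02 to 0.35, adjusted p = 0.103).

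Bcl2a1b (chr9:89199273-89207838) encodes one copy of A1, a survival protein induced by NF-kB. In CD4+ cells KO animals 1 to 4 had 4331, 3321, 9249 and 7492 normalized counts and the WT animals 8586, 10505, 9944 and 9334. In CD8+ cells the values were 3309, 2721, 7813 and 6355 in KO and 6646, 8104, 7537 and 7131 in WT. KO animals 1, 2 and 4 were below the WT range in both subsets, and KO animal 3 was within it. The differences of -0.77 (SE 0.27, adjusted p = 0.0695) and -0.67 (SE 0.30, adjusted p = 0.123) did not pass the test. With 1 library left out, Bcl2a1b passed in 1 of 8 fits in each subset, with adjusted p = 0.0149 to 0.165 in CD4+ and 0.0217 to 0.246 in CD8+ cells. The fit that passed was in both subsets the one without KO animal 3, the KO library with the highest value. Of the 771 distinct 47-base words in annotated transcripts of Bcl2a1b, 59.3% also occur in Bcl2a1d and 42.9% in Bcl2a1a, so which copy the reads came from is uncertain. Bcl2a1a and Bcl2a1d differed alike, by -0.82 and -0.83 in CD4+ cells and by -0.77 and -0.76 in CD8+ cells (adjusted p = 0.0562, 0.0519, 0.11 and 0.113).

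Bax (chr7:45461695-45466903) and Bak1 (chr17:27019812-27028627) encode the pore-forming effectors. In CD4+ cells Bax had 5267, 4662, 3930 and 3647 normalized counts in KO animals 1 to 4 and 3461, 3386, 3775 and 2982 in the WT animals. The lower KO values overlapped the higher WT values, and the difference of 0.35 (SE 0.12) did not pass the test (adjusted p = 0.0641). In CD8+ cells Bax had 3933 to 4843 in KO and 4365 to 4986 in WT libraries, with a difference of -0.11 (95% CI -0.28 to 0.07, adjusted p = 0.333).

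Bak1 in CD8+ cells had 8799, 10503, 9912 and 8603 normalized counts in KO animals 1 to 4 and 7958, 7915, 7754 and 7918 in the WT animals. The groups did not overlap, and the difference was 0.26 (SE 0.07, adjusted p = 0.0332, exact permutation p = 0.0286). This difference passed in 3 of the 8 fits with 1 library left out and in 6 of the 10 alternative settings. In CD4+ cells the KO range of 7338 to 10095 overlapped the WT range of 6981 to 7757 (log2 difference 0.21, 95% CI 0.00085 to 0.43, adjusted p = 0.136).

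Bbc3 (chr7:16308398-16318334) encodes PUMA, a BH3-only protein induced by p53 and by FOXO factors. In CD4+ cells KO animals 1 to 4 had 4739, 1177, 1987 and 2951 normalized counts and the WT animals 1037, 1122, 1317 and 1092. KO animal 2 lay within the WT range and the other 3 lay above it. The difference was 1.07 (SE 0.34, 95% CI 0.33 to 1.81, adjusted p = 0.0496, exact permutation p = 0.0571). It passed in 2 of the 8 fits with 1 library left out and in 4 of the 10 alternative settings. In CD8+ cells the values were 2564, 790, 628 and 1323 in KO and 535, 510, 536 and 550 in WT. Every KO library lay above every WT library, and the difference was 1.10 (SE 0.37, 95% CI 0.27 to 1.92, adjusted p = 0.0543, exact permutation p = 0.0286). The call in CD4+ and the missed call in CD8+ cells do not by themselves show a difference between the subsets. The interaction was -0.02 (95% CI -1.19 to 1.14), an interval too wide to exclude an unequal change.

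Bcl2l11 (chr2:128126038-128162547) encodes BIM. Its values overlapped between the genotypes in both subsets. They were 4493 to 6061 in KO and 3892 to 5281 in WT CD4+ libraries, and 7086 to 10126 in KO and 6564 to 8607 in WT CD8+ libraries. The differences were 0.21 (95% CI -0.05 to 0.47) and 0.17 (95% CI -0.10 to 0.43), with adjusted p = 0.229 and 0.317. Pmaip1, which encodes the MCL1-binding protein NOXA, differed by 0.07 in CD4+ cells (95% CI -0.27 to 0.40) and by -0.16 in CD8+ cells (95% CI -0.47 to 0.15). Bid (chr6:120893119-120917062), whose protein links death receptors to mitochondria after cleavage by caspase 8, had 1776 to 2470 normalized counts in KO and 1567 to 1707 in WT CD8+ libraries. The groups did not overlap, but the difference of 0.33 (SE 0.11) did not pass the test (adjusted p = 0.0576). In CD4+ cells the Bid difference was 0.19 (95% CI -0.03 to 0.40, adjusted p = 0.198).

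**Figure D2:**
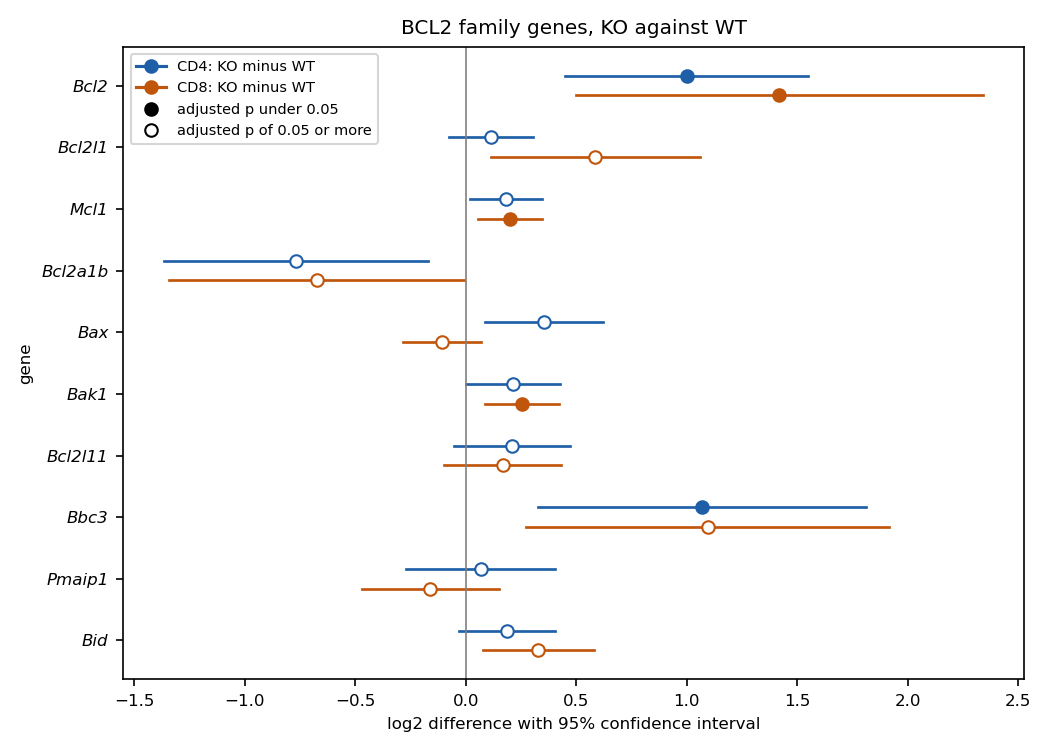
Log2 differences of KO minus WT with 95% confidence intervals for each gene in CD4+ and CD8+ cells, where filled points have an adjusted p under 0.05. Bcl2 is filled in both subsets at 1.00 and 1.42, Bbc3 in CD4+ cells, and Mcl1 and Bak1 in CD8+ cells.

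Counted over the members, 2 of 10 were higher and 0 lower in KO CD4+ cells, where 18.4% of the 12391 genes tested passed, 8.59% higher and 9.77% lower. In CD8+ cells 3 of 10 were higher and 0 lower, where 25.2% of 12383 genes passed, 12.6% higher and 12.5% lower. These counts, from limma, are thus near the shares over all genes. The median difference of the members was 0.20 in CD4+ and 0.23 in CD8+ cells, against -0.05 and -0.04 over all genes. KO and WT values were fully separate for 1 member in CD4+ cells, where this held for 25.6% of all genes, and for 4 members in CD8+ cells, where it held for 30.6%. In CD4+ cells edgeR called 2 members and DESeq2 3, where they called 2265 and 3100 of all genes. In CD8+ cells each called 6 of the 10 members, where they called 3055 and 3833 of the 12383 genes. There the share of members was larger than that of all genes, and this was not tested. Depending on which library was left out, 0 to 3 members passed in CD4+ and 0 to 7 in CD8+ cells. The shares of all genes passing in these fits are not given here. No member passed without WT CD4+ animal 3, 5 or 6, or when any WT CD8+ library was left out, 1 passed without KO CD4+ animal 1, WT CD4+ animal 2 or KO CD8+ animal 4, and 7 passed without KO CD8+ animal 3.

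The KO animals kept the same order across the 3 subsets for Bcl2a1b and Mcl1, and the order changed for the other members. Bcl2a1b ran from animal 3 through animals 4 and 1 to animal 2 in CD4+, CD8+ and DP cells, and the WT animals ran from 3 through 5 and 6 to 2 in both of their subsets. Mcl1 ran from KO animal 1 through 3 and 4 to 2 in all 3 subsets, though in CD8+ cells animals 3, 4 and 2 lay close together, at 16997, 16951 and 16687. For Bcl2 and Bbc3, KO animal 1 was highest in all 3 subsets, and for Bcl2 KO animal 3 was lowest in all 3. In DP cells, KO animal 3 had the lowest Bcl2 value of the series, 2429, with the highest Bcl2a1b and Bax values, 23817 and 8656. That library also had the fewest genes with reads and the highest neutrophil marker sum, 7179.

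**Figure D3:**
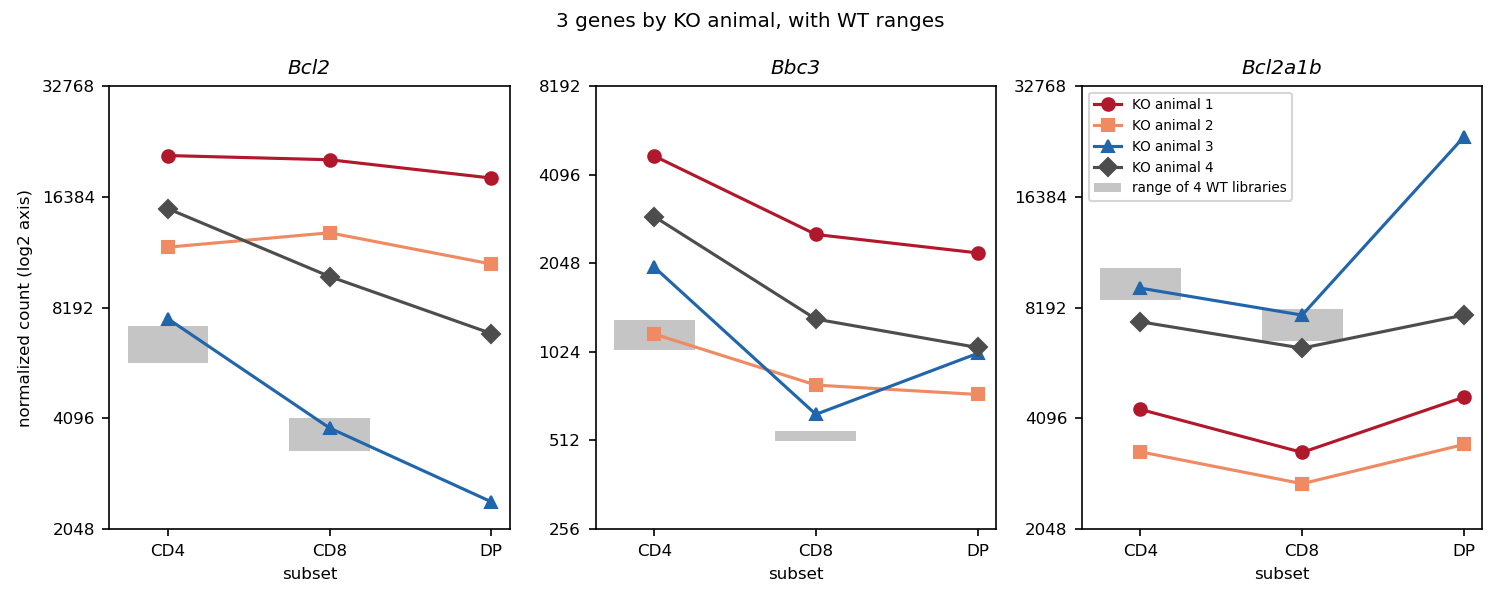
Normalized counts of Bcl2, Bbc3 and Bcl2a1b on log2 axes for KO animals 1 to 4 in CD4+, CD8+ and DP cells, with grey bands for the range of 4 WT libraries. The Bcl2 line of KO animal 3 reaches the WT band in CD8+ cells and falls to 2429 in DP cells, where its Bcl2a1b value is 23817.

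The ratio of Bcl2 to Bcl2l11, a survival protein and its main BH3-only ligand, was 1.26 to 3.66 in KO CD4+ and 1.14 to 1.63 in WT CD4+ libraries. In CD8+ cells it was 0.381 to 2.41 in KO and 0.44 to 0.568 in WT libraries, and in KO DP libraries 0.356 to 1.82. The ratio of Bcl2 to Bbc3 was 3.84 to 10.2 in KO CD4+ and 4.39 to 7.03 in WT CD4+ libraries, and 6.14 to 16.6 in KO CD8+ and 6.55 to 7.69 in WT CD8+ libraries. For both ratios the KO ranges overlapped the WT ranges in each subset. The ratio of Bcl2 to Bcl2a1b was 0.826 to 4.90 in KO CD4+ against 0.582 to 0.849 in WT CD4+ libraries. In CD8+ cells it was 0.493 to 6.24 in KO and 0.413 to 0.619 in WT libraries. These are ratios of normalized counts, not of counts per length, and are given without a test.

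Levels can be compared between genes only per length. Divided by the length of the exons in curated RefSeq transcripts, Bcl2a1b had the highest mean level in every group. It had 12555 ± 1078 normalized counts per kilobase in WT CD4+ and 9626 ± 809 in WT CD8+ cells (SD, n = 4). In KO CD4+, CD8+ and DP cells it had 7982 ± 3601, 6609 ± 3188 and 13018 ± 12339. Its lead over the next gene was smaller than its SD in each KO group. The reads it may share with its copies are part of these values. Mcl1, Bax and Bak1 came next in every group, at 3729 to 6598 per kilobase on average. Their order was Mcl1, Bax, Bak1 in KO CD4+, KO CD8+ and WT CD4+ cells and Bax, Bak1, Mcl1 in DP cells. In the KO groups neighbours in this order lay within the larger of their SDs, as did Bax and Bak1 in WT CD4+ cells. In WT CD8+ cells the order was Bax, Mcl1, Bak1, with 5369 ± 292, 4346 ± 95 and 3898 ± 44.6 per kilobase. The other 6 members lay between 207 and 1905 per kilobase. Bcl2 took place 7 in WT CD4+ cells at 894 ± 89.7 and place 9 in WT CD8+ cells at 514 ± 45.2, but place 5 in the 3 KO groups at 1905 ± 778, 1617 ± 951 and 1312 ± 921 in CD4+, CD8+ and DP cells. Bbc3 was last in every group but KO CD4+, at 207 ± 6.36 in WT CD8+ cells. In KO CD4+ cells Bcl2l11 was last, at 768 ± 96.3. With the longest transcript as length, Bcl2l11 took place 8 there at 1088 and Bid was last at 901, and Bcl2 took place 6 in the KO groups.

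**Figure D4:**
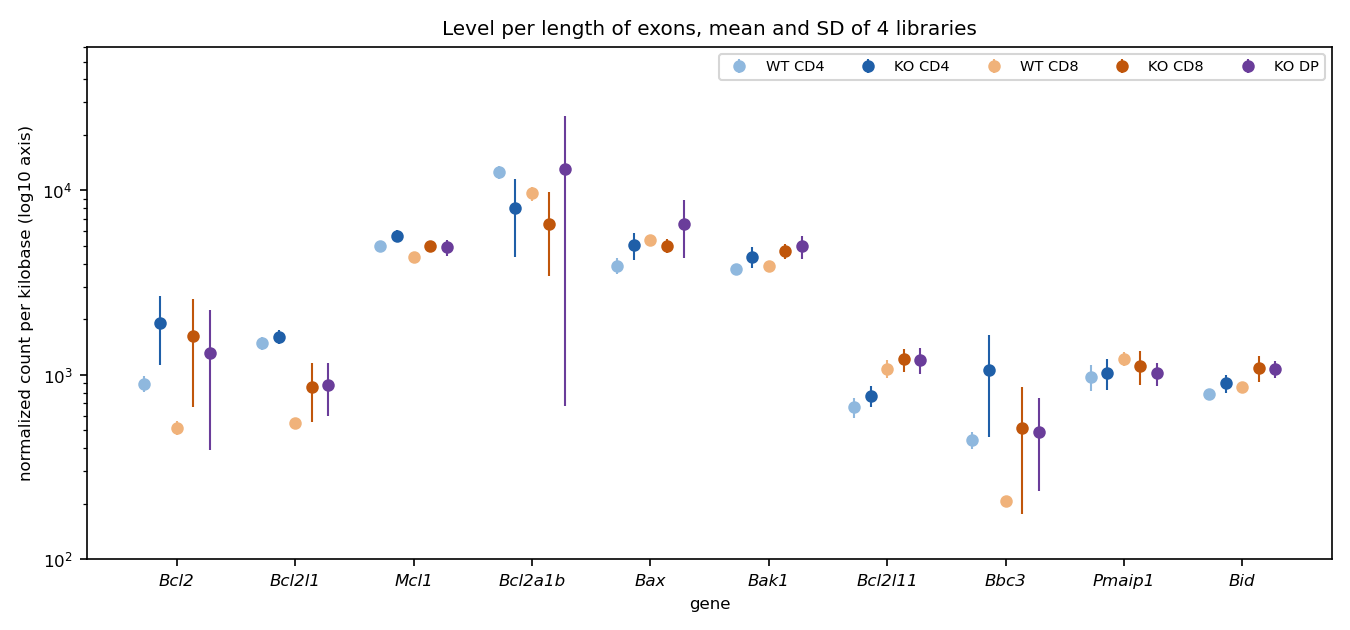
Normalized counts per kilobase of exon on a log10 axis for each gene and group, as mean and SD of 4 libraries. Bcl2a1b, Mcl1, Bax and Bak1 form the upper band in every group, and the SD of Bcl2, Bbc3 and Bcl2a1b is wider in KO than in WT groups.

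The CD4+ and CD8+ subsets of WT animals differed for most members. The survival genes Bcl2, Bcl2l1, Mcl1 and Bcl2a1b were higher in CD4+ cells, as was the death gene Bbc3. The genes that passed as higher in CD8+ cells, Bcl2l11, Bax and Pmaip1, were all death genes. Of 10 members, 8 passed the test, 5 higher and 3 lower in CD4+ cells, where 44.5% of 12559 genes passed, 22.3% higher and 22.2% lower. Libraries of the subsets did not overlap for 9 members, against 41.8% of all genes. Bcl2l1 was 2.72-fold higher in CD4+ cells, with 4580, 4608, 5409 and 4717 normalized counts in WT animals 2, 3, 5 and 6, against 1862, 1747, 1813 and 1675 in CD8+ cells (log2 difference 1.44, SE 0.06, adjusted p = 1.29e-09). Bbc3 was 2.13-fold and Bcl2 1.74-fold higher in CD4+ cells (log2 differences 1.09 and 0.80, adjusted p = 3.43e-07 and 2.38e-06). Bcl2a1b and Mcl1 were higher in CD4+ cells by 0.38 and 0.20 (adjusted p = 0.000583 and 0.00157). Bcl2l11 was 1.62-fold higher in CD8+ cells, with 8607, 7600, 7963 and 6564 normalized counts against 5281, 4760, 5054 and 3892 in CD4+ cells (CD4+ minus CD8+ -0.70, SE 0.09, adjusted p = 5.05e-05). Bax and Pmaip1 were also higher in CD8+ cells, 1.38-fold and 1.27-fold (adjusted p = 0.000108 and 0.0167). Pmaip1 no longer passed without WT CD8+ animal 6 or without the variance trend (adjusted p = 0.0552 and 0.0716), and a joint fit over all 20 libraries called Bcl2l1 and Bcl2l11 and no other member.

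In KO animals the difference between the subsets was wider spread. Bcl2l1 was 1.96-fold higher in CD4+ cells, where animals 1 to 4 had 5330, 5584, 5410 and 4590 normalized counts, against 4046, 3060, 1829 and 2221 in CD8+ cells (log2 difference 0.97, SE 0.22, adjusted p = 0.0366). Bcl2l11 was 1.58-fold higher in CD8+ cells, with 8559, 8848, 10126 and 7086 against 5789, 4493, 6061 and 5581 in CD4+ cells (CD4+ minus CD8+ -0.66, SE 0.13, adjusted p = 0.0238). For both genes no CD4+ library overlapped a CD8+ library. These were 2 of 10 members, 1 higher and 1 lower, where 4.22% of 12189 genes passed, 2.73% higher and 1.48% lower. With the animal as a block 5 members passed, where 18.9% of all genes did. Bbc3 (adjusted p = 0.00122), Bcl2a1b (0.00876) and Bid (0.0425) were added, and Bcl2l1 and Bcl2l11 had adjusted p = 0.00201 and 0.00133. The blocked differences were 1.07 for Bbc3, 0.29 for Bcl2a1b and -0.27 for Bid. Without the block, 0 members passed when KO CD4+ animal 1 or 4 or KO CD8+ animal 2 or 3 was left out, and 1 when KO CD4+ animal 2 or 3 or KO CD8+ animal 4 was. For these fits the shares of all genes are not given, so the counts do not set the members apart from all genes.

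**Figure D5:**
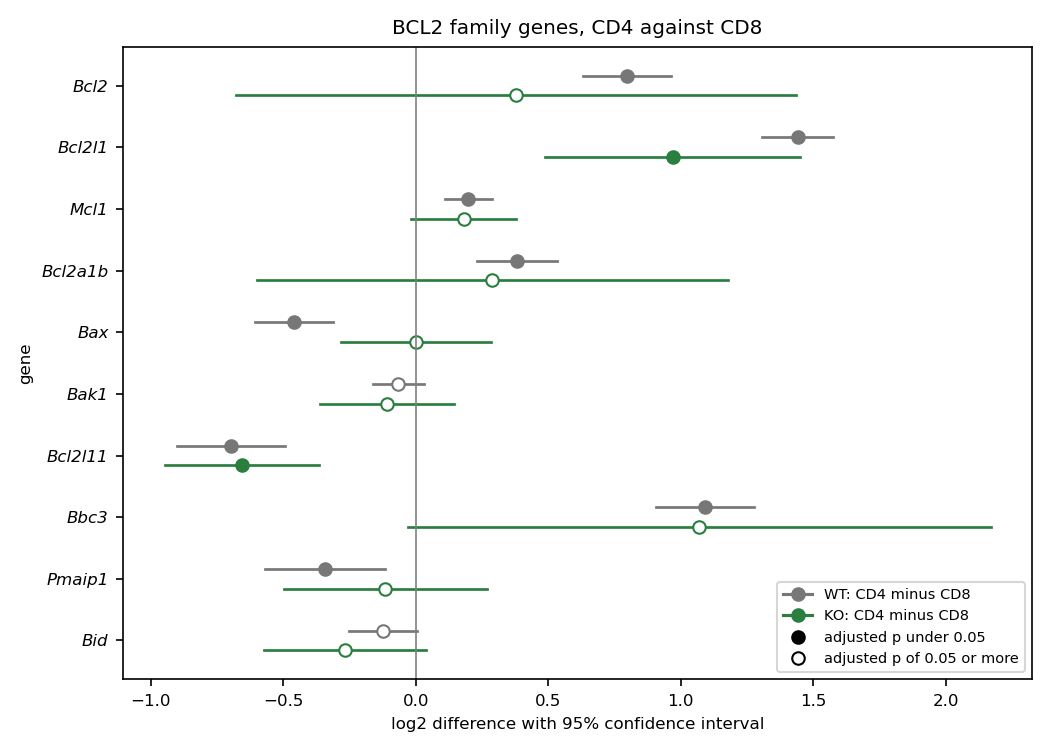
Log2 differences of CD4+ minus CD8+ cells with 95% confidence intervals for each gene in WT and in KO animals, where filled points have an adjusted p under 0.05. Bcl2l1 and Bcl2l11 are filled in both genotypes, at 1.44 and -0.70 in WT and at 0.97 and -0.66 in KO animals, and the KO intervals of Bcl2, Bbc3 and Bcl2a1b are several times wider than those of WT.

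Whether the effect of the KO differed between CD4+ and CD8+ cells was tested as an interaction over 16 libraries. In limma 0 of 10 members passed, where 0.0161% of 12446 genes did. An unadjusted p under 0.05 was found for 1 member and for 6.37% of all genes. The members called were 0 with edgeR and with DESeq2, where these called 1 and 21 of all genes. The interaction of Bcl2 was -0.42 (95% CI -1.54 to 0.70) and that of Bcl2l1 -0.47 (95% CI -0.98 to 0.04). For Bax it was 0.46 (SE 0.15, adjusted p = 0.526). With the animal as a block, Bax passed (adjusted p = 0.0352), where 1.39% of all genes did. Its KO-minus-WT difference was 0.35 in CD4+ and -0.11 in CD8+ cells, and neither passed by itself.

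DP cells were set against the single-positive cells of the same KO animals. Against CD8+ cells 0 of 10 members passed in limma, where 0.00823% of 12153 genes passed. An unadjusted p under 0.05 was found for 0 members and for 1.95% of all genes. The members called were 0 with edgeR and with DESeq2, where these called 1 and 3 of all genes. The difference of Bcl2 was -0.41 with a 95% CI of -1.82 to 1.01, and Bcl2 was lower in DP than in CD8+ cells in each of the 4 animals. Bcl2a1b differed by 0.69 (95% CI -0.57 to 1.94) and was higher in DP than in CD8+ cells in each of the 4 animals. The animal as a block gave adjusted p = 0.405 for both. Mcl1, Bcl2l11, Bbc3, Bid and Bcl2l1 differed by -0.03 to 0.05. With the block and without KO animal 3, an alternative chosen after seeing the data, Bcl2 differed by -0.32 (adjusted p = 0.00104) and Bcl2a1b by 0.38 (adjusted p = 0.000273), where 7.45% of 12134 genes passed.

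Against KO CD4+ cells 0 of 10 members passed in limma, where 1.95% of 12175 genes did. An unadjusted p under 0.05 was found for 3 members and for 14.9% of all genes. The members called were 0 with edgeR and 2 with DESeq2, where these called 192 and 728 of all genes. Bcl2l1 had 4101, 3016, 2242 and 2097 normalized counts in DP cells of animals 1 to 4, against 4590 to 5584 in CD4+ cells. No library overlapped, and the difference was -0.92 (SE 0.20, adjusted p = 0.0532, exact permutation p = 0.0286). Bcl2l11 had 10110, 9104, 6818 and 8428 in DP cells, all above the CD4+ range of 4493 to 6061 (log2 difference 0.65, SE 0.15, adjusted p = 0.0649, exact permutation p = 0.0286). Bbc3 had 2220, 734, 1012 and 1059 in DP cells, lower than the CD4+ value in each animal (log2 difference -1.06, 95% CI -2.02 to -0.09, adjusted p = 0.296). With the animal as a block 3 members passed, Bcl2l1 (adjusted p = 0.0191), Bcl2l11 (0.0453) and Bbc3 (0.0104), where 7.06% of all genes did. Without KO DP animal 1 or KO DP animal 3, 1 member passed without the block, and the share of all genes in these fits is not given. The 2 DP comparisons and the comparison of KO CD4+ with KO CD8+ cells share libraries, so their values stand side by side without a test of their likeness.

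The other genes of the BCL2 family moved in both directions. Of 12 tested, 0 rose and 1 fell in KO CD4+ cells, and 3 rose and 2 fell in KO CD8+ cells. Bcl2l14 fell by 1.10 in CD4+ and by 1.95 in CD8+ cells (adjusted p = 0.0269 and 0.0238), from WT means of 101 and 55.1 normalized counts. In CD8+ cells the BH3-only gene Bik fell by 1.41 (adjusted p = 0.0144), from 99.9 to 38.6 normalized counts. The mitophagy receptor gene Bnip3l rose by 0.43 in CD8+ cells (adjusted p = 0.0159). Bad, a BH3-only gene whose protein is held back by phosphorylation, rose by 0.38 (adjusted p = 0.0414). The median over the list was -0.29 in CD4+ and -0.12 in CD8+ cells.

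Of 16 genes of survival cytokine signalling, which act upstream of Bcl2, Mcl1 and Bcl2l11, 4 rose and 2 fell in KO CD4+ cells and 7 rose and 2 fell in KO CD8+ cells. The median difference was 0.18 and 0.21. Il7r, the receptor for IL-7, had the largest differences among those that rose, 1.20 in CD4+ and 1.65 in CD8+ cells (adjusted p = 0.0107 and 0.0151). Its ranges were 9793 to 22548 normalized counts in KO against 6331 to 8285 in WT CD4+ libraries, and 2701 to 10669 against 1504 to 1879 in CD8+ libraries, so the genotypes did not overlap. Jak3, the kinase bound to the common gamma chain of these receptors, fell by 0.74 and 0.92 (adjusted p = 0.0177 and 0.00268), and Il15ra, which presents IL-15, fell by 0.67 in both subsets (adjusted p = 0.0125 and 0.00619). In CD4+ cells Il2rb rose by 0.52 (adjusted p = 0.0312). In CD8+ cells Il4ra rose by 0.82 (adjusted p = 0.00614).

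Of 8 genes of NF-kB subunits and their feedback inhibitors, a pathway that induces Bcl2a1 genes and Bcl2l1, 0 rose and 5 fell in KO CD4+ cells, and 1 rose and 1 fell in KO CD8+ cells. The median difference was -0.53 in CD4+ and -0.23 in CD8+ cells. In CD4+ cells the subunit gene Nfkb2 fell by 0.78, the inhibitor genes Tnfaip3 and Nfkbie by 0.75 and 0.67, and Rel by 0.56 (adjusted p = 0.0161, 0.0482, 0.016 and 0.0337). In CD8+ cells Tnfaip3 fell by 0.90 and Nfkb1 rose by 0.30 (adjusted p = 0.00847 and 0.022).

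Of 12 genes of the p53 pathway, which induces Bbc3, Pmaip1 and Bax, 0 rose and 1 fell in CD4+ cells and 0 rose and 3 fell in CD8+ cells, with medians of -0.16 in both. Mdm4, an inhibitor of p53, fell by 1.24 and 0.90 (adjusted p = 0.000954 and 0.0121). In CD8+ cells the p53 targets Perp and Mdm2 fell by 0.59 and 0.26 (adjusted p = 0.0445 and 0.0437).

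Of 14 genes of caspase execution and its inhibitors, 1 rose and 2 fell in CD4+ cells and 1 rose and 3 fell in CD8+ cells. Casp6, an executioner caspase, rose by 0.39 and 0.70 (adjusted p = 0.0368 and 0.00369), and Birc2, an inhibitor of apoptosis, fell by 0.72 and 0.60 (adjusted p = 0.00626 and 0.00907). Apaf1, the scaffold that activates caspase 9 after cytochrome c release, fell by 0.56 in CD4+ cells (adjusted p = 0.0267). Htra2, whose protein is released from mitochondria, fell by 0.45 in CD8+ cells (adjusted p = 0.0376). Of 14 genes of the death receptor pathway, 0 rose and 1 fell in CD4+ cells, where the ligand gene Tnfsf10 fell by 0.96 (adjusted p = 0.00915). In CD8+ cells 2 rose and 1 fell, with Fas higher by 0.52, Ripk3 higher by 0.28 and Tnf lower by 1.24 on the log2 scale (KO against WT means of 1600 and 1112, 3607 and 2967, and 250.1 and 514 normalized counts, adjusted p = 0.0294, 0.0318 and 0.0405). Of 8 genes that act on MCL1 or BIM protein, 1 fell in CD4+ cells, Dynll1 by 0.33 (adjusted p = 0.0333), and 1 rose in CD8+ cells, Gsk3b by 0.34 (adjusted p = 0.0228). Of the 12 stress and immediate early genes, 8 fell in each subset and 0 rose, with log2 differences of -4.12 to -7.42 for Hspa1a, Hspa1b and Fosb.

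The genes whose log2 values ran most like those of a member over the 20 libraries were sought among 10024 genes with a mean of at least 100 normalized counts. For Bcl2 they were S1pr1, March7 and Pde2a, with Pearson's r = 0.963, 0.954 and 0.953. For Mcl1 they were Gpsm3, AI837181 and Cdipt (r = 0.919, 0.910 and 0.904), and for Bcl2l11 they were Pik3ap1, Prkch and Themis2 (r = 0.932, 0.921 and 0.908). Between members, r was 0.91 for Mcl1 with Bbc3, 0.77 for Bcl2 with Bbc3 and -0.72 for Bcl2 with Bcl2a1b. The 20 libraries share animals, subsets and genotypes, so these values describe the libraries and carry no test.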

How the data were processed

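The 20 RNA-Seq libraries were assigned to groups from their labels, which give genotype, subset and an animal number. The members, lists and tests were chosen with earlier results of these data known. Reads of stranded poly(A) libraries were aligned by the authors to mm10 with STAR (2.7.2b in the submitters' processing notes) and counted on UCSC genes. The deposited normalized signal is these counts divided by DESeq2 size factors. Undoing the division returned whole reads for 100% of values (tolerance 0.001 reads).

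Groups were compared with limma 3.58.1 in R 4.3.3 and its variance trend, on values of log2(normalized count + 1). Genes needed a mean of at least 10 in the libraries compared, with 2-sided p-values adjusted by the Benjamini-Hochberg procedure over all genes (threshold 0.05). This scale understates changes of low genes. Single members have exact permutation tests, which at 4 libraries against 4 cannot go below 0.0286. The settings varied were the pseudocount (10), the minimum mean (none, or 50), the scaling (quantile, or 75th percentile) and the trend (none). Others were edgeR 4.0.16 and DESeq2 1.42.0 on whole reads, a joint fit, a block for the animal, and fits without each library in turn. Leaving out KO animal 3 in every group was added after seeing the data.

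Equal numbers were taken as the same animal within a genotype, from the labels. Deviations from group means correlated at r = 0.271 to 0.538 between equal KO numbers (-0.395 to 0.116 between different ones) and at 0.120 to 0.196 between equal WT numbers. Named genes were all members, up to 4 genes per list and subset past the threshold with the largest differences, Dnmt3a, and the 3 genes most like Bcl2, Mcl1 and Bcl2l11. Lengths, positions and upstream windows came from RefSeq for GRCm38.p6. The calculations were tested on simulated data. Every pair of libraries differed beyond sampling noise (lowest chi-square per degree of freedom 11.0). In KO against WT, the p-values measure the spread between animals. There limma pools the KO and WT spread of a gene, although it was wider in KO for Bcl2, Bbc3 and Bcl2a1b. Between subsets and for the interaction, tests without the block treat libraries of the same animal as independent. With the animal as a block, they use the spread within animals. Single genes of the lists that are withheld are not reported here.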

Additional observations from a re-analysis of the deposited data

Results flagged for a closer look

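In 4 of 50 tests of a group of 4 libraries, the highest or lowest library stood far from the other 3, and chance flags about 1 in 20 such groups. Mcl1 was 19141 in CD8+ cells of KO animal 1, above 16687 to 16997 in the other 3. Bak1 was 6981 in CD4+ cells of WT animal 6, below 7694 to 7757. Pmaip1 was 3493 in CD4+ cells of KO animal 2, above 2386 to 2507, and 1957 in CD4+ cells of WT animal 2, below 2709 to 2848.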

How the results depend on the processing

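Of 1410 values of single members under an alternative, 64 had the opposite sign to the main value, and 0 of these belonged to a member that passed the test. The number of members that passed moved more often, and the cause was not tested.
For KO against WT CD4+ cells (2 members), it was 1 without the filter, with a minimum mean of 50 or at a common 75th percentile, and 0 without the trend or in the joint fit. For CD8+ cells (3), it was 0 without the trend, 6 with edgeR, 6 with DESeq2, 1 in the joint fit, and 2 without the filter or at the 75th percentile. For DP against KO CD8+ cells (0), it was 2 with the block and without KO animal 3. For DP against KO CD4+ cells (0), it was 1 with a pseudocount of 10, with quantile normalization or without KO animal 3, 2 with DESeq2 or the joint fit, and 3 with the block, with or without KO animal 3. For WT CD4+ against CD8+ cells (8) the joint fit gave 2, and 7 passed without the trend. For KO CD4+ against CD8+ cells (2), it was 0 without the trend or without KO animal 3, 1 with edgeR, 5 with the block, and 4 with the block and without KO animal 3. For the interaction (0) the block gave 1. With 1 library left out, the counts ran from 0 to 3, 0 to 7, 0 to 0, 0 to 1, 7 to 8, 0 to 2 and 0 to 0 in the order KO against WT CD4+, the same for CD8+, DP against KO CD8+, DP against KO CD4+, WT subsets, KO subsets and the interaction.
KO and WT share only the numbers 2 and 3, which do not mark the same animal. With these numbers as a replicate block 0 members passed in either subset, 26 and 89 genes passed in all, and Pmaip1 differed by 0.044 in CD8+ cells. Within a genotype the block changed no other call than those given above.
The other sign changes were of members that did not pass in the main comparison. For DP against KO CD8+ cells, Bcl2l1 was -0.028, Bcl2l11 0.18 and Bbc3 -0.21 without KO animal 3, with or without the block, Bcl2l11 was 0.0032 with quantile and 0.0035 with 75th percentile scaling, Bid was 0.0018 with 75th percentile scaling, and Bbc3 was -0.084 with edgeR and -0.086 with DESeq2. Bax was -0.0020 in KO CD4+ against CD8+ cells at the 75th percentile, and the interaction of Bak1 was 0.013 with quantile normalization. The log2 differences of members whose sign changed when 1 library was left out had these ranges. For KO against WT CD4+ they were Pmaip1 -0.061 to 0.12. For DP against KO CD8+ they were Bcl2 -0.87 to 0.14, Bcl2l1 -0.14 to 0.25, Mcl1 -0.078 to 0.023, Bcl2l11 -0.10 to 0.098, Bbc3 -0.30 to 0.40, Pmaip1 -0.22 to 0.017, Bid -0.080 to 0.079. For DP against KO CD4+ they were Pmaip1 -0.063 to 0.13, Bcl2a1b -0.16 to 0.76. For KO CD4+ against CD8+ they were Bcl2 -0.086 to 0.72, Bax -0.092 to 0.085, Pmaip1 -0.24 to 0.014. For the interaction they were Mcl1 -0.054 to 0.028, Bcl2l11 -0.052 to 0.13, Bak1 -0.11 to 0.041, Bbc3 -0.35 to 0.37, Bcl2a1b -0.35 to 0.16.
Genes passing in all were 1403 without the trend and 1304 in the joint fit for KO against WT CD4+ (2274), 2017 in the joint fit for CD8+ (3118) and 1610 in the joint fit for WT subsets (5592). The counts for DP against KO CD4+ (237) were 124 without the trend, 728 with DESeq2, 1459 in the joint fit, 860 with the block, 93 without KO animal 3 and 1746 with both. For KO subsets (514) they were 299, 956, 885, 2305, 122 and 1446 in the same order. For the interaction (2) they were 0 without the trend, 1 with edgeR or the joint fit, 7 without the filter, 21 with DESeq2, 173 with the block and 4 without KO animal 3. The count for DP against KO CD8+ (1) was 3 with DESeq2 and 904 with the block and without KO animal 3. With the longest transcript as length, 33 of 50 ranks of members within a group were unchanged.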
